A study of Mus musculus with 6 samples.

Results

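Open chromatin was described around 3 genes of the cartilage matrix, Comp, Matn1 and Matn3, in ATDC5, an established mouse line labelled pre-chondrocyte, on days 0, 3 and 10. ATAC-seq was used, in which the Tn5 transposase inserts adapters into open DNA. Per the labels, Day0 cells carry the treatment label control and Day3 and Day10 cells the label differentiation, and cells for all 3 days were spotted as dense droplets. The labels also say that undifferentiated cultures were kept by passaging. The differentiation medium held beta-glycerophosphate and ascorbate-2-phosphate. Each day has 2 libraries, described as independent biological replicates of the 1 cell line. Members are the peaks of the authors' 6 lists whose summit lies in 1 of 3 fixed windows, read as GRCm39. These are 120 kilobases on chromosome 8 for Comp, 140 kilobases on chromosome 4 for Matn1 and 150 kilobases on chromosome 12 for Matn3. The windows held 895 of 1455940 listed peaks: 399 in the Comp window, 307 in the Matn1 window and 189 in the Matn3 window.

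Cartilage oligomeric matrix protein, the product of Comp, is a secreted glycoprotein of the thrombospondin family that binds collagens and proteoglycans. Matrilins are adaptor proteins of the extracellular matrix with von Willebrand factor A domains. They form filaments and link collagen fibrils to aggrecan and to other partners, Comp among them. Matn1 is a classic marker of cartilage, Matn3 is found mainly in cartilage and growing bone, and mutations of COMP and MATN3 cause forms of multiple epiphyseal dysplasia. Tendon and ligament also make Comp. Genes of this kind are switched on as precursors turn into chondrocytes, under factors of the SOX family.

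No gene annotation or genome sequence of the lists' build was used here, so gene starts were not placed on the lists and no peak was assigned to a gene. In RefSeq's gene order for GRCm38.p6, Comp lies between Upf1 and Crtc1, Matn1 between Laptm5 and Ptpru, and Matn3 between Laptm4a and Wdr35. A window can therefore hold regions that belong to a neighbour. Because the peaks say nothing of RNA, the labelled cell type was not checked against its markers.

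RefSeq's promoter table for GRCm38.p6 matched 2 of the 3 genes, Matn1 and Matn3. The 250 bases before each gene start are shown because they are the stretches on which a peak at the promoter would be read. Matn1 lies at chr4:130944135-130944384 and Matn3 at chr12:8947679-8947928, in GRCm38.p6 and not in the build of the peaks, both on the plus strand. Capitals mark matches, on either strand, to 5 short motifs: ACAAAG and AACAAT for SOX factors, TGTGGT for RUNX, TGANTCA for AP-1 and GGAATG for TEAD.
Matn1: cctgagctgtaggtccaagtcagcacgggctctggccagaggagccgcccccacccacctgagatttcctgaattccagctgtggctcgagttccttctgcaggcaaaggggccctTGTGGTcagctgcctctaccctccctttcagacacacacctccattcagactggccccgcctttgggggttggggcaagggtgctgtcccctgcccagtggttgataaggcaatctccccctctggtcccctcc
Matn3: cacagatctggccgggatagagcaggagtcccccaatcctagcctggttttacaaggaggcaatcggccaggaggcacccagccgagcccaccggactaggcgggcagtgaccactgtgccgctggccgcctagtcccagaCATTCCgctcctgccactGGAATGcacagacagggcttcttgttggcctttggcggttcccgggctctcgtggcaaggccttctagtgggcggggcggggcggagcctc
The Matn1 stretch held 1 match, to TGTGGT, from 134 to 129 bases before the start. The Matn3 stretch held 2 matches to GGAATG, 1 on each strand, from 109 to 104 and from 91 to 86 bases before the start. No 2 matches overlapped. Of 32851 promoters of the same length, 14.0% held TGTGGT and 12.6% held GGAATG, while 16.5% held ACAAAG, 9.42% AACAAT and 6.75% TGANTCA. A match to so short a motif is a description of the letters only.

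The lists differ between days in length and depth. Day10 libraries listed 381376 and 390100 peaks, and the other 4 libraries between 164642 and 177751. Relative to Day0 replicate 1, a depth estimate made from each list's background and narrowest peak was 1.96 for the 2 Day10 libraries and 1.0 to 1.13 for the rest. The narrowest listed peaks were 68 and 72 bases long at Day10 and 87 to 90 elsewhere, so the day and whatever differed in making these libraries cannot be told apart. Peak names carry the word lysis in the Day3 lists and in no other, and what it marks cannot be told apart from the day either. Peaks were therefore compared by their rank within equal numbers of the strongest peaks. Rank 1 is the strongest peak of a library, and the fold over background given beside a rank is the authors' own value.

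Regions were stretches of 501 bases around the summits of the 50000 strongest peaks of each library. Of 78698 regions in all, 46 lay in the windows: 17 for Comp, 20 for Matn1 and 9 for Matn3. A gained region had a rank of 50000 or better in each later-day library, and in each earlier-day library a rank beyond 100000 or no listing. A lost region is the mirror image, and a kept one is within 50000 in all 4 libraries. The call had to hold for a peak with its summit in the region and for any peak overlapping it. With 2 libraries against 2, an exact two-sided permutation test cannot give a p below 0.333, so no p-value is given, and each count is set beside the share of all regions called the same way.

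The 3 windows opened to different extents. By Day10, 16 of the 46 regions were gained against Day0, where 10.7% of all regions were gained. The Matn1 window held 11 of them among its 20 regions, the Comp window 4 among 17 and the Matn3 window 1 among 9. The share was 55.0% for Matn1 and 23.5% for Comp, above that of all regions, and 11.1% for Matn3, close to it. The Comp share was not above that of all regions at every setting of the limits, as given with its regions. The Matn3 share rests on 1 region and moved too. With rank limits of 30000 and 60000 it was 0 of 6 regions, beside 9.83% of all regions. With limits of 70000 and 140000 it was 3 of 16, or 18.8%, beside 11.3%. No region of the 3 windows was lost at Day10 against Day0, where 7.99% of all regions were lost. Another 17 regions were kept, beside 34.9% of all regions, and these ranked within the 50000 strongest at Day3 too. The other 13 were neither gained nor kept.

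Counts of strong peaks followed the same order. Among the 50000 strongest peaks, the Matn1 window held 6 in each Day0 library, 8 in each Day3 library and 20 in each Day10 library. The Comp window held 9 and 8 at Day0, then 10 and 11 at Day3 and later 14 and 13 at Day10. The Matn3 window held 6 and 6, then 7 and 6, then 9 and 8. In each of the 3 windows both Day10 libraries held more strong peaks than any earlier library, and the step from Day3 to Day10 was larger for Matn1 than for Comp. The bases covered by these peaks in the Matn1 window were 3608 and 3651 at Day0, followed by 4625 and 4728 at Day3 and by 15336 and 16766 at Day10. In the Comp window they were 4575 and 4184, then 6901 and 7161, then 16366 and 16435. Covered bases thus grew 4.42 times for Matn1, 3.74 times for Comp and 1.55 times for Matn3 between Day0 and Day10. These bases depend on peak width as well as number, and no whole-series value was computed to set beside them.

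**Figure D1:**
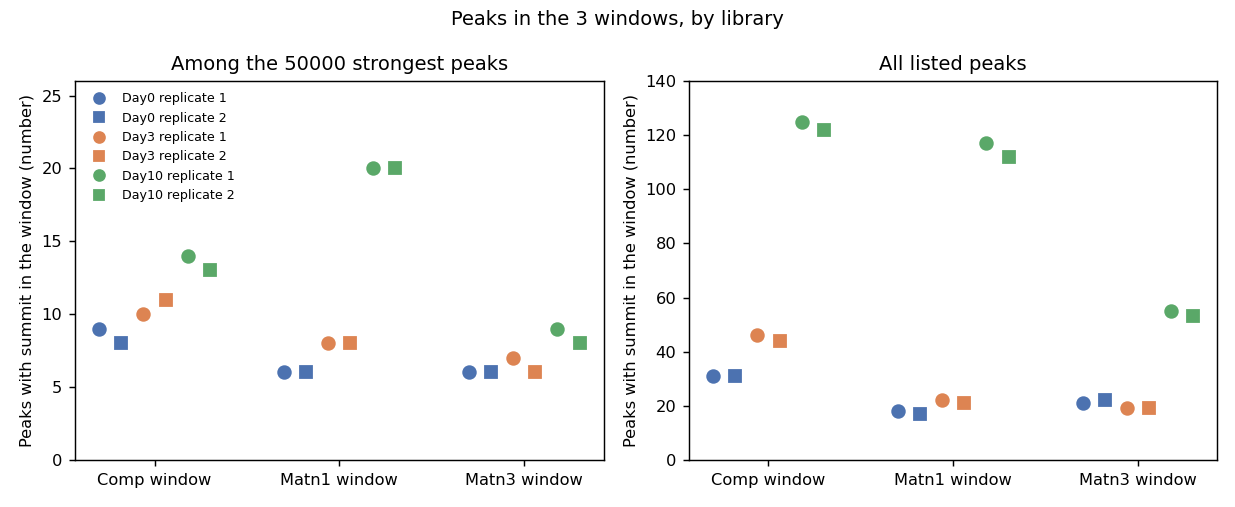
Number of peaks with their summit in each window, per library, among the 50000 strongest peaks of the library (left) and in the whole list (right). Circles are replicate 1 and squares replicate 2, coloured by day. The Matn1 window goes from 6 strong peaks in each Day0 library to 20 in each Day10 library, while the Matn3 window stays between 6 and 9.

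Whole lists also hold weak peaks. In the Matn1 window 18 and 17 peaks were listed at Day0, then 22 and 21 at Day3 and later 117 and 112 at Day10. In the Comp window the numbers were 31 and 31, 46 and 44, and 125 and 122, and in the Matn3 window 21 and 22, 19 and 19, and 55 and 53. Day10 over Day0 this is 6.54 times for Matn1, 3.98 times for Comp and 2.51 times for Matn3, beside 2.34 times for the whole lists. Of the peaks listed in the windows, 231 of 297 in Day10 replicate 1 and 221 of 287 in Day10 replicate 2 ranked beyond 100000. These 2 lists rank 380922 and 389677 peaks in all, so most peaks of either whole list lie beyond that rank too. Whether depth has a part in these whole-list numbers was not tested.

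Matn1 had the densest gain. Of its 11 gained regions, 9 had no overlapping peak listed in either Day0 library, and 7 had none at Day0 or Day3. Among all regions gained at Day10 against Day0, 69.9% had no listed peak at Day0 and 37.6% none at Day0 or Day3. The lowest fold that the lists hold at Day0 is 3.5 and 3.47, and at Day3 3.34 in both libraries. The 11 regions lie on 11 separate Day10 peaks and spread over 65.4 kilobases. The longest run of neighbouring Matn1 regions within the 50000 strongest in both Day10 libraries and in no Day0 library held 9 regions. It went from a summit at 130653792 to one at 130687616, a stretch of 33.8 kilobases, and 7 of the 9 were gained. The run was picked by this condition, so that all 9 meet it follows from the choice. Run lengths over all regions were not computed. With no gap between ranks, 14 of 20 Matn1 regions were gained, beside 18.1% of all regions.

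In that stretch, the region chr4:130669882-130670382 had no listed peak at Day0 or Day3 and ranked 11465 and 7523 at Day10, with a fold of 32.6 and 36.3. Its neighbour chr4:130671270-130671770 was likewise listed at Day10 alone, at ranks 22832 and 16360 and a fold of 26.4 and 30.2. On the other side, chr4:130668333-130668833 was listed at Day10 alone, at ranks 23945 and 20597. The 3 summits follow each other within a few kilobases, and each is a peak of its own. The region chr4:130664969-130665469 was not listed at Day0, ranked 88385 and 84032 at Day3 and reached 13028 and 6979 at Day10. Its fold was 7.78 and 8.34 at Day3 and 31.7 and 36.7 at Day10, so it was already listed, but weak, on day 3. Between them, chr4:130666839-130667339 ranked 85038 and 95561 at Day0, followed by 74680 and 79495 at Day3 and by 12232 and 11971 at Day10. It missed the call because its Day0 ranks lay inside 100000. The region chr4:130674149-130674649 ranked 149948 and 137654 at Day0, then 136093 and 153660 at Day3 and later 30908 and 35175 at Day10.

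A pair of weaker gained regions opened the stretch. The first, chr4:130653542-130654042, ranked 41323 and 37988 at Day10. The second, chr4:130654466-130654966, ranked 33577 and 36553. Neither was listed on an earlier day, and both lay close enough to rank 50000 that their folds at Day10, 19.7 and 20.9 for the first and 22.1 and 21.4 for the second, were little above the fold of 17.75 and 17.66 found at that rank. At the far end of the stretch, chr4:130687366-130687866 had its best ranks at Day3, 21517 and 21006, against 62233 and 52313 at Day0 and 41324 and 44317 at Day10.

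The other 4 gained regions of the Matn1 window lay before that stretch. The region chr4:130629955-130630455 was absent from both Day0 lists, ranked 136092 and 168918 at Day3 and reached 15465 and 16359 at Day10. The region chr4:130636433-130636933 was listed at Day10 alone, at ranks 26096 and 23500. So was chr4:130641215-130641715, at 46841 and 37987, the weakest of the 11 in Day10 replicate 1. The region chr4:130608722-130609222 changed in steps, from 115374 and 101476 at Day0 through 71100 and 68491 at Day3 to 39590 and 41038 at Day10. The best-ranked Day10 region of the window was none of these. It was chr4:130626925-130627425, with ranks of 77257 and 77901 at Day0, followed by 32937 and 33486 at Day3 and by 1826 and 4493 at Day10. Its fold went from 10.5 and 10.4 through 20.6 in both Day3 libraries to 41.7 and 39.0, and it missed the gained call on its Day0 ranks.

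**Figure D2:**
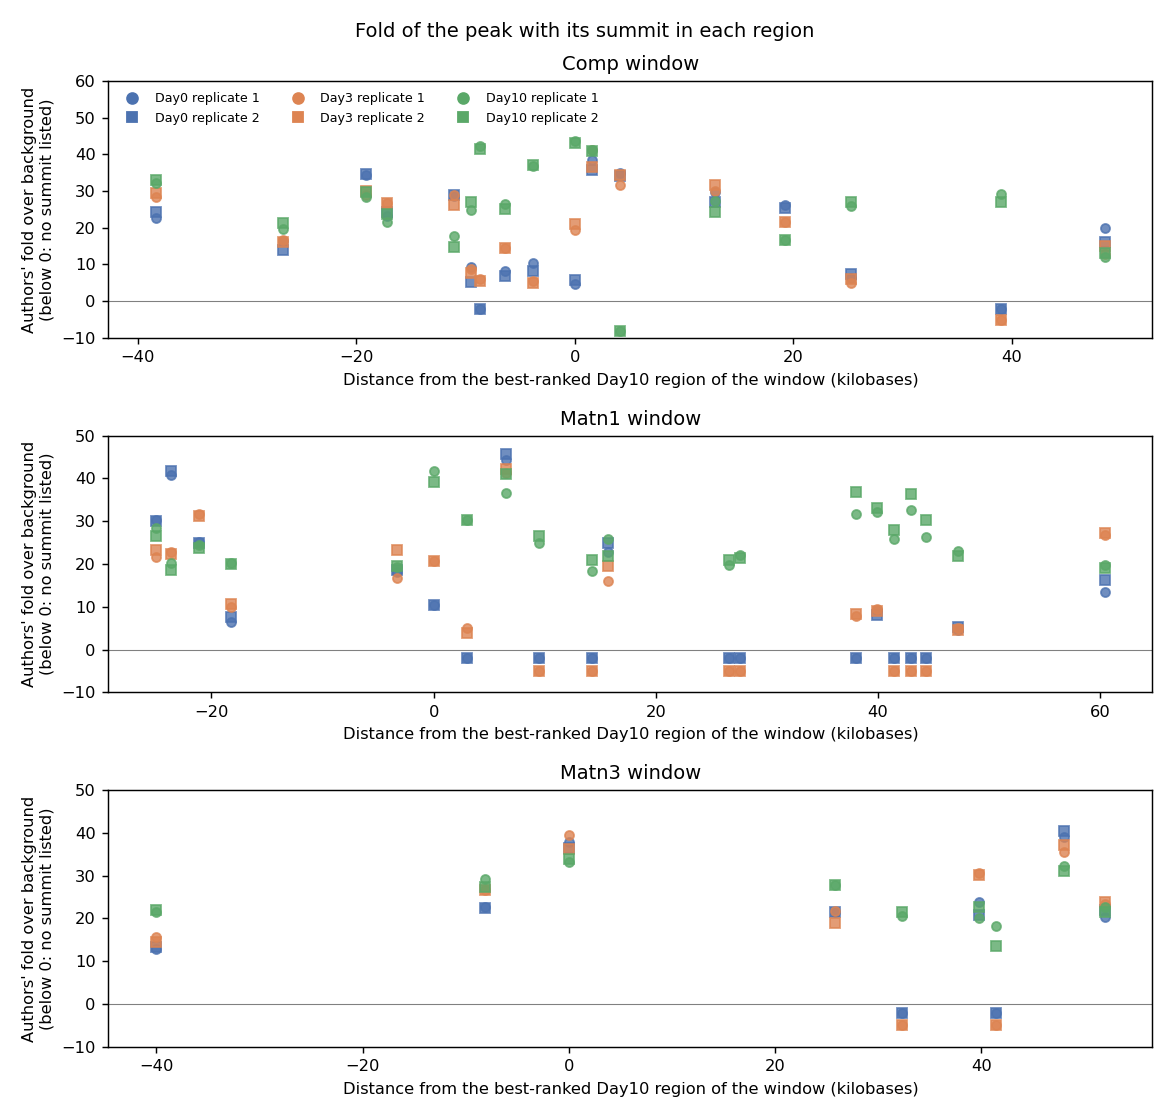
Fold over background, the authors' value, of the peak with its summit in each of the 46 regions (vertical axis), against the distance in kilobases from the best-ranked Day10 region of the window. Colour gives the day, and circles and squares replicates 1 and 2. Points below 0 have no summit listed, with a fixed height per day. In the Matn1 panel, 7 regions have Day10 points between 18.2 and 36.3 and no listed Day0 or Day3 summit, and in the Comp panel the unlisted Day10 point is a site covered by a wide peak with its summit elsewhere.

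Not every region near Matn1 followed this direction. The strongest site of the window at Day0, chr4:130633438-130633938, stayed near the top, at ranks 6752 and 6237 at Day0, then 5442 and 4872 at Day3 and later 6364 and 2908 at Day10. Both Day3 ranks were better than both Day0 ranks, and the Day10 ranks overlapped those of Day0 and Day3. The region chr4:130603309-130603809 went the other way. It ranked 9835 and 9738 at Day0, followed by 28342 and 29907 at Day3 and by 39589 and 46093 at Day10, a mean rank 4.38 times as large, while it stayed within the 50000 strongest. This fall in rank was mostly present by Day3. Of the 20 Matn1 regions, 16 ranked better in both Day10 libraries than in either Day0 library and 1 ranked worse, taking the best peak that overlaps a region. Over all regions these shares were 43.9% better and 41.2% worse. A region with no such peak took the last rank, so every gained region counts as better by definition. The 16 thus include the 11 gained Matn1 regions, and the 43.9% include the 10.7% of all regions that were gained.

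Comp had fewer gained regions, 2 of which ranked better at Day10 than any gained Matn1 region. The region chr8:70823037-70823537 ranked 152618 and 128486 at Day0, then 35814 and 32506 at Day3 and later 985 and 1592 at Day10. Its fold was 4.66 and 5.78 at Day0, followed by 19.5 and 21.1 at Day3 and by 43.7 and 43.2 at Day10. This made it the best-ranked of the 46 regions in both Day10 libraries. It was also the single region of the 3 windows gained at Day3 against Day0, where 0.543% of all regions were gained. The region chr8:70814322-70814822 was not listed at Day0, ranked 112694 and 125203 at Day3, and ranked 1614 and 2677 at Day10. Its fold was 6.12 and 5.56 at Day3 and 42.2 and 41.4 at Day10, so nearly all of its change came after Day3.

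The remaining 2 gained regions of the Comp window lay on the far side. The region chr8:70862056-70862556 was listed at Day10 alone, at ranks 17328 and 22746 and a fold of 29.3 and 27.0. The region chr8:70848328-70848828 ranked 117528 and 102976 at Day0, then 140582 and 113185 at Day3 and later 24219 and 22745 at Day10. Neither region was inside rank 100000 in a Day3 library.

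Other Comp regions ranked better at Day10 than at Day0 without a call against Day0, and 3 of them lay beside the gained ones. The region chr8:70819228-70819728 ranked 78082 and 96813 at Day0, followed by 124706 and 140854 at Day3 and by 5929 and 6580 at Day10, and was gained against Day3. The region chr8:70816636-70817136 changed in steps, from 96002 and 109902 through 50703 and 51210 to 23092 and 26825. The region chr8:70813502-70814002 ranked 86014 and 140846 at Day0, so the Day0 libraries disagreed about the limit of 100000, and 26368 and 22744 at Day10. With the regions at 70814322 and 70823037 these form the longest run of the Comp window, 5 neighbours over 9.5 kilobases, picked as for Matn1. By that choice all 5 were within the 50000 strongest in both Day10 libraries and in no Day0 library. Of these, 2 were gained. The Comp count depends on where the rank limits stand: it was 7 with the 30000 strongest and a gap to 60000, 8 with no gap, and 2 with the 70000 strongest and a gap to 140000. Over all regions the shares gained at these settings were 9.83%, 18.1% and 11.3%. The last setting left 2 of 21 Comp regions gained, or 9.52%, below the share of all regions. With limits on the authors' -log10 q in place of ranks, 2 of 17 Comp regions were gained, or 11.8%, close to the 10.5% of all regions.

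**Figure D3:**
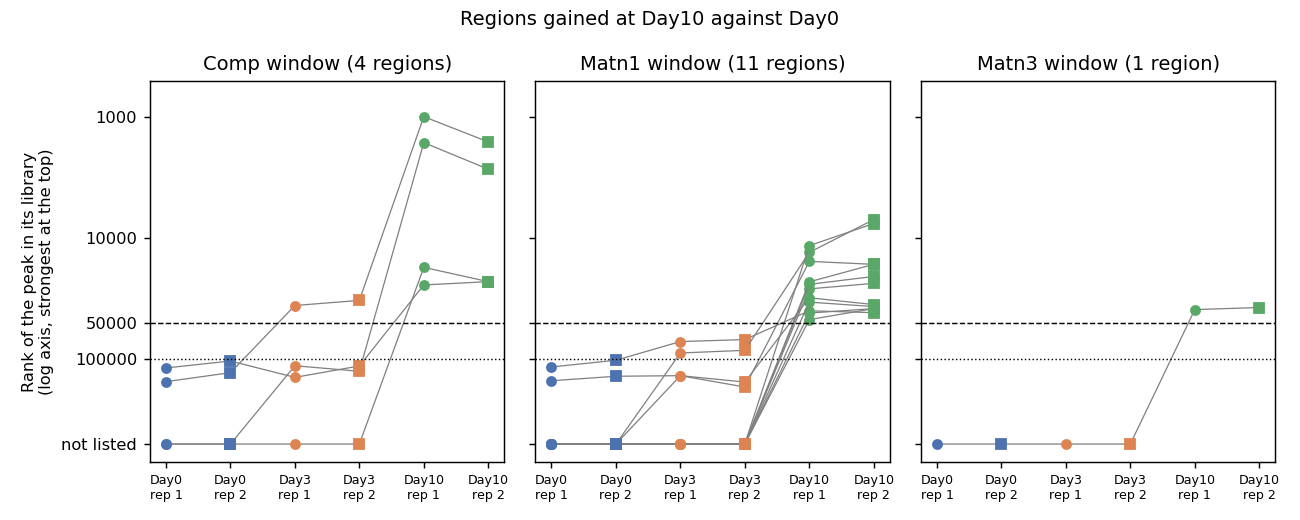
Rank within its library (log axis, strongest at the top) of each region gained at Day10 against Day0, 1 line per region, in the 3 windows. The dashed line is rank 50000 and the dotted line rank 100000. In the Comp window 1 region is already above the dashed line at Day3, and in the Matn1 and Matn3 windows no gained region is.

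Next to this run lay the site with the best mean rank of the Comp window at Day0 and Day3. The region chr8:70824579-70825079 ranked 12429 and 15996 at Day0, then 5537 and 9627 at Day3 and later 2159 and 3012 at Day10, a mean rank 5.5 times as large at Day0 as at Day10. Its peak was 902 and 925 bases wide at Day0, followed by 1050 and 1113 at Day3 and by 4326 and 4436 at Day10. The Day10 peak runs from 70824188 to 70828513 in replicate 1 and from 70824166 to 70828601 in replicate 2. It takes in a second site, chr8:70827159-70827659, which at Day0 held a peak of its own at ranks 16413 and 18078, and at Day3 at 14659 and 11891. At Day10 that site had no summit and was covered by the wide peak. Judged by summits alone it was lost at Day10 against both earlier days, where that rule called 10.0% of all regions lost against Day0 and 4.59% against Day3.

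Some Comp regions ranked worse later. The region chr8:70811970-70812470 ranked 25077 and 25060 at Day0, then 18379 and 22985 at Day3 and later 49252 and 63700 at Day10. It lies next to the run that gained. The region chr8:70842278-70842778 ranked 28880 and 30724 at Day0 and 53553 and 54436 at Day10, and chr8:70871558-70872058 ranked 41963 and 52710 at Day0 and 82756 and 75418 at Day10. These are the 3 of 17 Comp regions whose best overlapping peak ranked worse in both Day10 libraries than in either Day0 library. For 11 it ranked better, and over all regions the shares were 41.2% worse and 43.9% better. The 11 include the 4 gained regions, better by definition. They also include chr8:70827159-70827659, which counts as better only through the wide peak that covers it.

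At the main limits Matn3 changed least in the set of strong regions. Its gained share was not below that of Comp at every setting. With limits of 70000 and 140000 it was 18.8% beside 9.52% for Comp, and with limits on -log10 q 22.2% beside 11.8%. Of its 9 regions, 6 ranked within the 50000 strongest in all 6 libraries, a share of 66.7% beside 32.7% of all regions. The same share was 30.0% in the Matn1 window and 29.4% in the Comp window. The single gained region, chr12:9004057-9004557, was not listed at Day0 or Day3 and ranked 38721 and 37200 at Day10, with a fold of 20.6 and 21.4. A second region, chr12:9013203-9013703, was also listed at Day10 alone. It ranked 47670 in replicate 1 and 72933 in replicate 2, so the call rested on Day10 replicate 2 and it was not gained. Without that library the Matn3 count was 2 of 9, or 22.2%, beside 12.4% of all regions.

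The strongest Matn3 sites kept their place. The region chr12:9019751-9020251 ranked 11962 and 11087 at Day0, followed by 10430 and 9195 at Day3 and by 12583 and 15204 at Day10. Its Day10 ranks are a little worse than its Day0 ranks, with no overlap. The region chr12:8971775-8972275 ranked 13232 and 15468 at Day0, then 6870 and 10292 at Day3 and later 11088 and 10927 at Day10. It carried a wide peak on every day, 1508 and 1513 bases at Day0, followed by 1690 and 1687 at Day3 and by 1466 and 1455 at Day10.

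Smaller shifts in the Matn3 window mostly went towards better ranks. The region chr12:8997573-8998073 had the largest change among those kept, from 38086 and 38997 at Day0 and 31055 and 37930 at Day3 to 20254 and 21067 at Day10. Its mean rank was 1.87 times as large at Day0 as at Day10. The region chr12:8931704-8932204 ranked 65996 and 64150 at Day0, then 47256 and 51625 at Day3 and later 35639 and 35786 at Day10. The region chr12:9011558-9012058 had its best ranks on day 3, 16242 and 17368, against 33219 and 40344 at Day0 and 40374 and 33025 at Day10. In all, 7 of the 9 regions ranked better in both Day10 libraries than in either Day0 library and 1 ranked worse, beside 43.9% and 41.2% of all regions.

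Day3 stood close to Day0 at these calls. No region of the 3 windows was lost at Day3 against Day0, where 0.513% of all regions were lost, and 20 of 46 were kept, beside 45.6% of all regions. In rank order, 26 of 46 regions were better in both Day3 libraries than in either Day0 library, and 5 were worse. All regions gave 42.3% and 31.2%, so ranks without overlap were common in general. Better ranks held for 7 of 9 Matn3 regions and 10 of 17 Comp regions. For Matn1 it was 9 of 20, close to the share of all regions.

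Against Day3, 14 of the 46 regions were gained at Day10 and none was lost, where 7.72% of all regions were gained and 3.16% lost. The Matn1 window held 9 of the 14, the Comp window 4 and the Matn3 window 1. Another 21 were kept, beside 37.9% of all regions. By rank order, 30 regions were better and 12 worse in both Day10 libraries than in either Day3 library, beside 36.1% and 48.4% of all regions. The 30 include the 14 gained regions, better by definition. Both comparisons share the Day10 libraries, and 13 regions were gained in both. No share over all regions was computed for gains in both. Of the 16 regions gained against Day0, 13 were beyond rank 100000 or not listed in both Day3 libraries, 2 were intermediate and 1 was already strong. Among all gained regions, 66.3% were out at Day3, 30.2% intermediate and 3.48% strong.

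Peaks at the sites open on every day differed in width. The calls do not rank by width, but a wider peak can overlap more regions, so width enters them through the overlap condition. Of the 17 regions within the 50000 strongest in all 6 libraries, 12 had a wider peak in both Day10 libraries than in either Day0 library and 3 a narrower one. Of the 25716 such regions in all, 50.3% were wider and 22.0% narrower. Between Day0 and Day3, 11 of the 17 were wider and 3 narrower, beside 49.0% and 14.3%. Between Day3 and Day10, 11 were wider and 4 narrower, beside 34.9% and 31.9%. From Day0 to Day10 all 5 Comp regions were wider, as were 4 of 6 Matn1 regions and 3 of 6 Matn3 regions. The median width of the 5 Comp peaks was 682 and 425 bases at Day0, followed by 682 and 704 at Day3 and by 1085 and 1102 at Day10. Over all such regions the median was 662 and 668 at Day0, then 751 and 742 at Day3 and later 738 and 767 at Day10. In the Comp window, chr8:70805888-70806388 widened from 705 and 715 bases through 1310 and 1230 to 1742 and 1756. The top Matn1 site at chr4:130633438-130633938 widened from 649 and 702 through 891 and 1019 to 2016 and 2132. The Matn1 region chr4:130603309-130603809, whose rank became worse, narrowed from 1017 and 1024 to 773 and 759. Day10 libraries were also the deepest, and the part of depth in these widths was not tested.

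**Figure D4:**
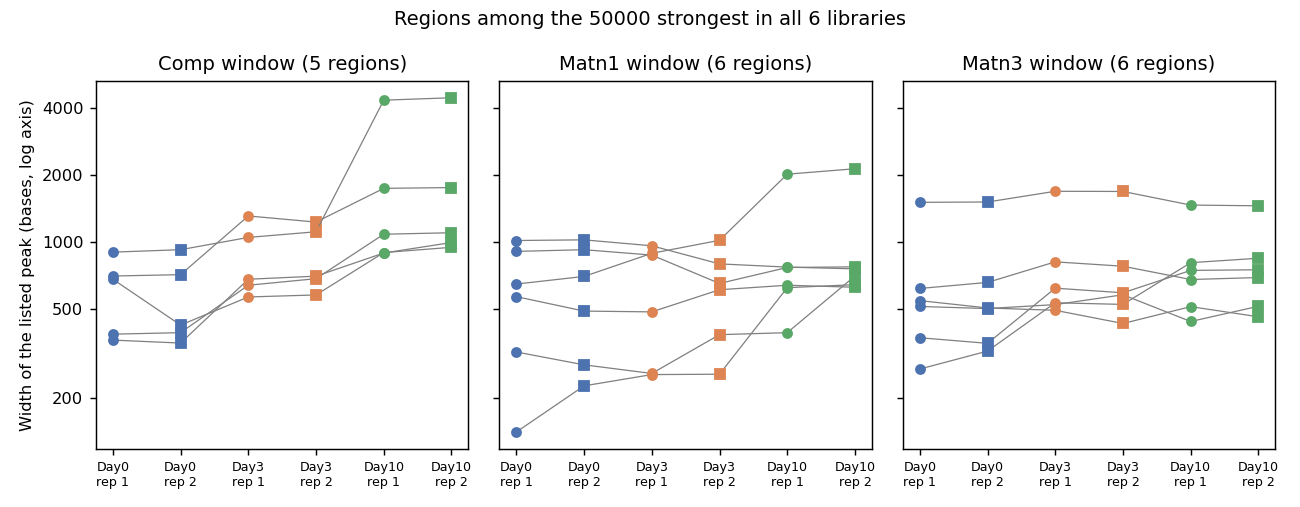
Width in bases (log axis) of the listed peak at each region within the 50000 strongest in all 6 libraries, 1 line per region, in the 3 windows. All 5 Comp lines are highest at Day10, where the widest peaks reach 4326 and 4436 bases, and the Matn3 line near 1500 bases stays level.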

How the data were processed

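ATAC-seq peak lists of 6 ATDC5 libraries, 2 each at Day0, Day3 and Day10, were used, with groups and replicates taken from the sample titles. The authors deposited 1 narrowPeak list per library, so replicates were not pooled. Per peak, the deposited columns give the authors' fold ratio, their -log10 of p and of q, and a whole-number score. In the deposited lists the score is 10 times the -log10 q cut to a whole number, and it was not used. Trim Galore and mm10 are named in the submitters' processing notes. The lists hold scaffold names of GRCm39, and positions are read as that build, counted from 1. Which aligner, caller and Tn5 shift were applied is not given in the sources used here. Total read numbers were not used here.

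Peaks on chromosomes 1 to 19, X and Y were ranked by -log10 p, then by fold and position. Regions reach 250 bases to each side of a summit, with overlaps resolved for the better rank. The spacing of the deposited folds gives a background per library, and pileups recovered from it were whole within 0.02 in 100% of peaks. Background divided by the smallest width gave the depth estimate. Calls were tested on simulated lists of equal length with separate peaks of fixed width. That test does not cover lists of unequal length or depth, or peaks that merge. Regions named with values were, per window, all gained or lost regions, the best mean rank on each day and the kept region with the largest ratio of mean ranks between Day0 and Day10. Other regions were named after their values were seen, and so were the comparisons of rank order and width. The runs of neighbouring regions were not planned beforehand either. The members and lists were chosen with earlier results of these data known. Peaks at gene starts, a list of other cartilage genes and motifs in regions needed an annotation or genome of the lists' build and were not run. Python 3.11.15, numpy 2.4.6 and pandas 2.3.3 were used.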

Additional observations from a re-analysis of the deposited data

How the results depend on the processing

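The total gained at Day10 kept within 1.5 times its value in every alternative run, from 13 to 24 against Day0 and from 10 to 19 against Day3, and so did the Matn1 count, from 8 to 14. The regions in the windows numbered from 36 to 59 over these runs, and the gained shares moved too. Against Day0 the share ran from 23.7% with limits of 70000 and 140000 to 52.2% with no gap, beside 11.3% and 18.1% of all regions. The Matn1 share was lowest and highest at the same settings, 40.9% and 70.0%. Against Day3 the share was lowest at these limits, 16.9% beside 7.96% of all regions. It was highest with no gap, 41.3%, where the share of all regions was highest too. Leaving out 1 library drops a condition, so counts could only rise: 16 to 18 against Day0, 4 to 6 for Comp, 11 for Matn1 and 1 to 2 for Matn3. Over all regions the share gained against Day0 was then 11.2% to 12.5%. With the 30000 strongest and a gap to 60000, 7 of 15 Comp and 0 of 6 Matn3 regions were gained, beside 9.83% of all regions. There were 0 Day3 gains, beside 0.436%. With the 70000 strongest and a gap to 140000, 2 of 21 Comp and 3 of 16 Matn3 regions were gained, beside 11.3% of all regions. There were 0 Day3 gains, beside 0.826%. Of 59 regions, 1 was lost at Day3 and 1 at Day10 against Day0, beside 0.774% and 8.04% of all regions. With no gap there were 8 Comp, 2 Matn3 and 4 Day3 gains, and 1 loss at Day10 against each earlier day. The 4 Day3 gains are 8.7% of the 46 regions, beside 7.99% of all regions, and the losses stand beside 17.5% and 14.1%. At this setting 18.1% of all regions were gained at Day10 against Day0. With a -log10 q of 10 or more as strong and below 5 as out, Comp and Matn3 had 2 gains each. That was 11.8% and 22.2% of their regions, beside 10.5% of all regions. By summits alone 1 region was lost at Day10 against each earlier day, the Comp site covered by a wide peak. Counting distinct Day10 peaks, an alternative added after seeing the data, left 16 gains. Beyond these settings the cause was not tested.

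Among the 30000 strongest peaks, the 3 windows together held 11 and 10 at Day0, then 16 and 18 at Day3 and later 27 and 25 at Day10. The Matn3 window alone held 2 and 2 at Day0, then 5 and 5 at Day3 and 4 and 4 at Day10. All listed peaks numbered 70 and 70, 87 and 84, and 297 and 287, and covered 21343 and 21264, 27976 and 26783, and 84009 and 88061 bases. No paired analysis was possible because no result comes from a test, and the labels tie no samples of equal replicate number together. The Day0 and Day3 lists are shallower than those of Day10, and the part of depth in sites not listed was not tested.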
